A study of Mus musculus with 4 samples.

Results

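The Slc12 genes encode the cation-chloride cotransporters, membrane proteins that carry chloride together with sodium, potassium or both. Of the 55487 genes in the count table, 8 listed members of the family (Slc12a1, Slc12a2, Slc12a3, Slc12a4, Slc12a5, Slc12a7, Slc12a8 and Slc12a9) were examined, found by symbol. The family was chosen by the measured counts of Slc12a1, which were far higher in knockout than in control libraries. The difference of Slc12a1 is therefore given as a description without a test, and the question is whether the other 7 members showed the same difference. There were 4 mouse libraries of polyadenylated RNA from dental pulp of the lower incisor at postnatal day 30, strain C57, sorted by flow cytometry as negative for CD45, Ter119 and Tie2. The KO group (2 libraries) was Ptipf/f;Sp7-cre, and the WT group (2 libraries) was Ptipf/f, so that both groups carried floxed Ptip alleles and only KO carried Cre. Sp7 is a transcription factor gene of osteoblasts and odontoblasts. Cells of other lineages in the sort need not have expressed this Cre. The WT animals carried no Cre, so loss of Ptip and presence of the transgene cannot be told apart. Whether each library is a separate animal is not given in the labels, and p-values then measure only the spread between these libraries, which may be technical.

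The family falls into branches by the ions carried. Slc12a1 (NKCC2), Slc12a2 (NKCC1) and Slc12a3 (NCC) bring chloride into the cell with sodium. Slc12a4 (KCC1), Slc12a5 (KCC2) and Slc12a7 (KCC4) let chloride out with potassium. NKCC2 is known from the thick ascending limb of the kidney, NCC from the distal convoluted tubule and KCC2 from neurons, whereas NKCC1 and KCC1 are found in many tissues. Kinases of the WNK and SPAK/OSR1 families activate the sodium-coupled carriers and inhibit the potassium-coupled ones.

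The libraries held 19142757 and 17770831 counts in KO and 15154246 and 15394782 in WT. Levels are given as CPM, counts scaled to a common library total with TMM factors. Paxip1, the gene of Ptip, stood at 5.69 and 3.98 CPM in KO, against 28.3 and 44.3 CPM in WT. Summed dental mesenchyme markers reached 20380.3 and 31043 CPM in KO and 21224 and 46060.3 CPM in WT (11 of 12 tested). Most of this sum was 1 gene, Col1a1, with 14440 and 24543 CPM in KO and 17241 and 38662 CPM in WT. The libraries also held RNA of other cells. Ameloblast and dental epithelium markers summed to 35031 and 42129.6 CPM in KO, against 63882 and 22959.9 CPM in WT. Most of that was Ambn, with 31001 and 41111 CPM in KO and 52583 and 18171 CPM in WT. Leukocyte markers, among them the gene of CD45 that the sort selected against, summed to 561 and 209.8 CPM in KO and 3562 and 1139 CPM in WT, with Cd3e at 0 in every library. In such bulk samples, fewer cells of a type and less RNA per cell cannot be told apart.

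The sequences just before Slc12a1 and Slc12a3 are shown because these sodium-coupled carriers were the members that stood farthest apart between genotypes, one higher and one lower in KO. They are taken from the RefSeq promoter table (build GRCm38.p6) and stop before the first annotated transcribed base. The Slc12a1 stretch is chr2:125152350-125152504 and the Slc12a3 stretch is chr8:94328958-94329200, both on the plus strand. Capitals mark matches on either strand to the TATA box (TATAAA), the CAAT box (CCAAT), the GC box (GGGCGG) or a core of RUNX sites (TGTGGT). No capitals overlap another match.
Slc12a1: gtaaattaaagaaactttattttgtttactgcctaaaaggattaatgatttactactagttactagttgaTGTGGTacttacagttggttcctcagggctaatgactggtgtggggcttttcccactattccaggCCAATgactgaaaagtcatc
Slc12a3: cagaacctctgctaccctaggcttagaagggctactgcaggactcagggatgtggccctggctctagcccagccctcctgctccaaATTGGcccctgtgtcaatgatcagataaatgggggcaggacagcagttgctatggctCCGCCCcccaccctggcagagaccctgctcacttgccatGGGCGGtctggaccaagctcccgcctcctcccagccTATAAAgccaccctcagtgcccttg
The 155 bases before Slc12a1 were poor in G and C (37.4%, against a median of 51.0% for the first 155 bases of 32851 promoter records). The windows compared were cut by length alone, so those of other genes need not end at an annotated start. They held 1 RUNX core, found in 9.01% of those windows, and 1 CAAT box, found in 20.7%. The 243 bases before Slc12a3 were rich in G and C (60.9%, against a median of 52.3%). They held 2 GC boxes (in 31.8% of windows of that length), 1 TATA box (12.2%) and 1 CAAT box (33.3%). The homeobox core TAATTA, in 3.35% and 4.79% of windows of these lengths, was in neither stretch.

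Slc12a1, the sodium-potassium-chloride carrier of the kidney tubule, was the member with the high KO counts. The gene (ENSMUSG00000027202) spans positions 125152505 to 125230002 of chromosome 2 (GRCm38, plus strand). There were 2464 and 1888 counts in KO, against 114 and 150 counts in WT. On the CPM scale these were 126 and 106 in KO and 7.93 and 9.55 in WT. Both KO libraries lay far above both WT libraries, and the libraries of a group lay close together (116 ± 14.5 CPM in KO and 8.74 ± 1.15 CPM in WT; SD, n = 2 each). The fitted log2 fold change of KO over WT was 3.73 (SE 0.37), a 13.3-fold difference that ranked 92 from the top among 17128 genes tested. With any 1 library left out the log2 fold change lay between 3.61 and 3.90. Slc12a1 was chosen for this difference, so neither the SE nor this range is a test of it. The antisense gene Gm14002 overlaps Slc12a1 and had 28 and 41 counts in KO against 8 and 20 counts in WT, which is few beside the counts of Slc12a1. The library kit does not mark strand, so reads of the pair can be told apart by position only. None of the 5838 distinct 50-base words of the annotated Slc12a1 transcripts occurred in a transcript of another gene, on either strand.

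**Figure D1:**
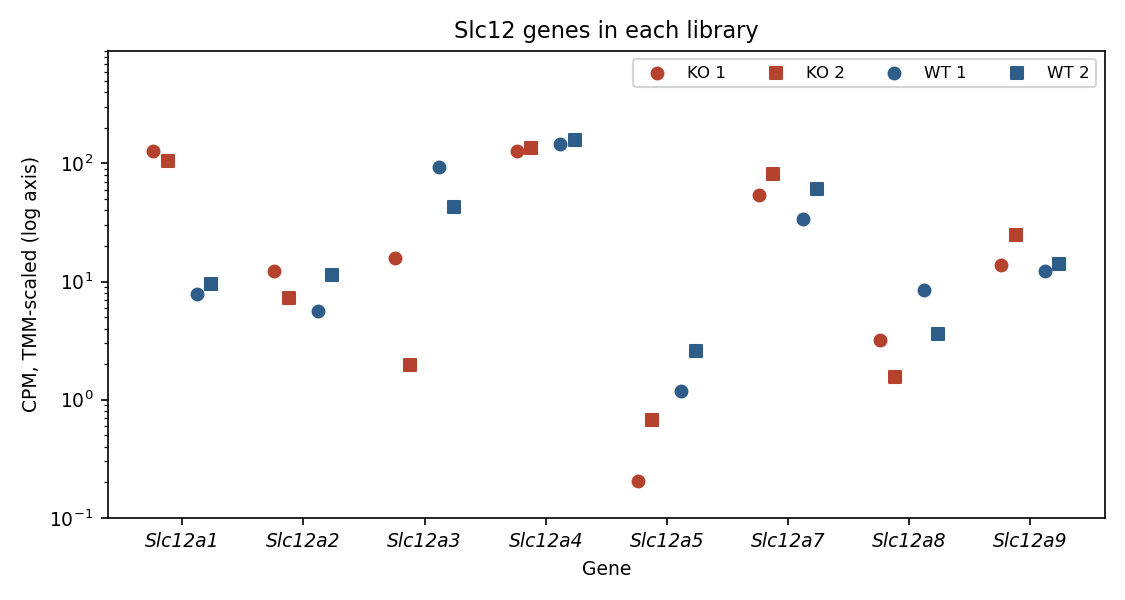
TMM-scaled CPM (log axis) of the 8 Slc12 genes, with 1 point per library, KO in red and WT in blue. Slc12a1 stands at 126 and 106 CPM in KO against 7.93 and 9.55 CPM in WT, Slc12a3 stands lower in KO, and Slc12a4 is nearly level.

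The other 7 members had log2 fold changes between -2.94 and 0.54. At an adjusted p under 0.05 (edgeR quasi-likelihood test, Benjamini-Hochberg over 17128 genes) 0 of the 7 were higher and 0 lower in KO, where the background was 0.0% of all genes in each direction. At an unadjusted p under 0.05, 0 were higher (background 7.32%) and 1 was lower (background 9.89%), namely Slc12a3. DESeq2 also called 0 of the 7 higher (background 2.72%) and 1 lower (background 5.69%), again Slc12a3. In limma-voom 0 of the 7 passed, where 0 of all genes passed in either direction. No other member lay above both WT libraries in both KO libraries (background 25.8%), whereas 4 of the 7 lay below them (background 24.9%), and the remaining 3 overlapped. Their median log2 fold change was -0.20, against 0.0024 for all genes tested. The upper 95% bounds of their changes reached 3.18-fold at most. The difference between Slc12a1 and the others was not tested, because Slc12a1 was chosen for it.

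**Figure D2:**
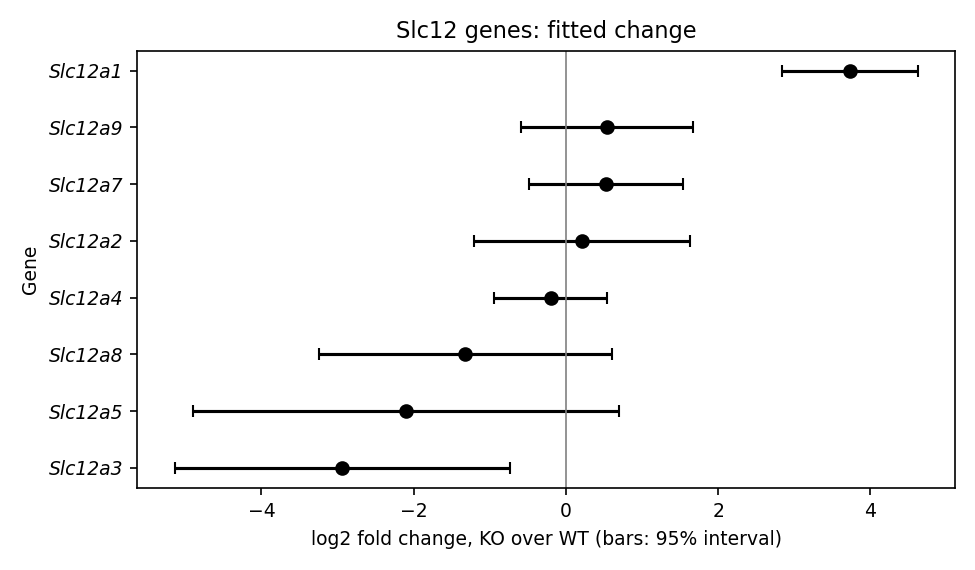
Fitted log2 fold change of KO over WT for the 8 Slc12 genes, ordered by value, with bars for the 95% interval of the edgeR fit. Slc12a1, chosen for its difference, lies at 3.73, and its bar does not allow for that choice and is no test. The other members lie between -2.94 and 0.54.

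Among the sodium-coupled carriers, Slc12a2 encodes NKCC1, the widespread relative of NKCC2 that supplies chloride in secretory epithelia. The gene lies on chromosome 18 from 57878678 to 57946821. It had 12.3 and 7.29 CPM in KO, against 5.63 and 11.3 CPM in WT. The groups overlapped, and the log2 fold change was 0.21 (95% interval -1.20 to 1.63, adjusted p = 0.904 in edgeR). It changed sign without WT 1 (-0.17) and without KO 1 (-0.20), so no direction can be given.

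Slc12a3, the thiazide-sensitive sodium-chloride carrier of the distal tubule, stood on the opposite side from Slc12a1. The gene lies on chromosome 8 from 94329201 to 94366214. It had 307 and 35 counts in KO, against 1341 and 672 counts in WT. On the CPM scale these were 15.7 and 1.96 in KO and 93.2 and 42.8 in WT. Both KO libraries were below both WT libraries, but the KO libraries differed widely between themselves. The log2 fold change was -2.94 (SE 0.93, 95% interval -5.14 to -0.74), with an adjusted p of 0.201 in edgeR and 0.00171 in DESeq2. It was -5.10 without KO 1 (adjusted p = 2.79e-05), -2.06 without KO 2 (adjusted p = 0.259), -3.45 without WT 2 (adjusted p = 0.127) and -2.24 without WT 1 (adjusted p = 0.193). Over the 4 libraries, the genes whose centred log2 CPM lay closest to that of Slc12a3 were Ighv1-39, Fam196b, Smtnl2, Cd37 and Vpreb3 (root mean square difference of 0.14 to 0.17). Of these, Ighv1-39 is an immunoglobulin gene segment, Cd37 encodes a leukocyte surface protein and Vpreb3 belongs to B-cell precursors. A set of 12 B-lineage genes, with Cd37 and Vpreb3 among them, was therefore added after these values were seen, so its counts are a description. All 12 lay lower in both KO libraries than in both WT libraries (background 24.9%), edgeR called 0 of them and DESeq2 called 9 lower (background 5.69%), and their median log2 fold change was -2.997. None was at 0 in all libraries. Pax5, the B-cell identity factor, had 13.8 and 5.04 CPM in KO, against 138 and 75.3 CPM in WT. The 12 genes summed to 1059 and 178 CPM in KO and 6979 and 2476 CPM in WT. Set against that sum, the Slc12a3 level came to 1.49% and 1.10% of it in KO and 1.34% and 1.73% in WT. The part of B-lineage cells in the Slc12a3 values was not tested.

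Slc12a3 also has a neighbour with high counts. Herpud1, a gene of the endoplasmic reticulum stress response 20224 bases beyond Slc12a3, had 542 and 486 CPM in KO, against 2146 and 927 CPM in WT (log2 fold change -1.58, adjusted p = 0.185 in edgeR and 0.0165 in DESeq2). Nup93, a nuclear pore gene on the other side at 11974 bases, had 66.1 and 62.9 CPM in KO, against 65.1 and 62.7 CPM in WT, nearly level over all libraries. Of the others within 5 protein-coding genes on each side, Nlrc5 was lower in both KO libraries (log2 fold change -2.38, adjusted p = 0.168 in edgeR and 0.00575 in DESeq2). Mt1 and Mt2 were also lower in CPM (-0.77 and -0.84, adjusted p = 0.447 and 0.750 in edgeR), but only narrowly apart. Mt1 had 32.4 CPM in KO 2 and 32.5 CPM in WT 2. Mt2 had 15 and 15 counts in KO, against 28 and 15 counts in WT. Cpne2 was higher in both KO libraries (1.30, adjusted p = 0.231 in edgeR and 0.108 in DESeq2). The rest overlapped or were too low to be tested. These neighbours were looked at after the Slc12a3 values were seen.

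Among the potassium-coupled carriers, Slc12a4 encodes KCC1, the volume-regulating carrier found in most cells. The gene spans positions 105943590 to 105966097 of chromosome 8 (minus strand). The antisense gene Gm16156 overlaps it with 4 and 5 counts in KO and 0 and 5 counts in WT, and shares 5.19% of its 50-base words. It had 127 and 136 CPM in KO, against 145 and 157 CPM in WT. The groups lay close together without overlap, and the log2 fold change of -0.20 (95% interval -0.94 to 0.54, adjusted p = 0.810 in edgeR) had the narrowest interval of the family. With KO counts like those of Slc12a1, its interval ran from 0.52-fold to 1.45-fold.

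Slc12a7 encodes KCC4, which also serves in volume regulation, and lies on chromosome 13 from 73733094 to 73816754. It had 54.3 and 81.2 CPM in KO, against 33.7 and 60.3 CPM in WT. The groups overlapped, since KO 1 lay below WT 2 (log2 fold change 0.53, 95% interval -0.48 to 1.54, adjusted p = 0.592 in edgeR). Slc12a5, the neuronal carrier KCC2, lies on chromosome 2 from 164960802 to 164999731 and had few counts, with KO 1 close to the limit of detection. Slc12a5 had 4 and 12 counts in KO, against 17 and 41 counts in WT, where 3 counts are the limit that a count of 0 allows. Both KO libraries were below both WT libraries, with a log2 fold change of -2.10 and a wide interval from -4.90 to 0.70 (adjusted p = 0.426 in edgeR). Of 10 neuronal markers, Snap25, Syt1, Elavl3, Elavl4, Nefl and Nefm were too low to be tested, and the 10 summed to 55.2 and 79.3 CPM in KO and 42.3 and 42.8 CPM in WT.

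The remaining members are distant relatives. Slc12a9, a family member whose transported ions are not settled, spans positions 137314558 to 137333597 of chromosome 5 (minus strand). It had 13.8 and 24.8 CPM in KO, against 12.3 and 14.2 CPM in WT, and KO 1 fell between the WT libraries (log2 fold change 0.54, 95% interval -0.58 to 1.67, adjusted p = 0.627 in edgeR). Slc12a8 lies on chromosome 16 from 33517328 to 33664135. It had 3.23 and 1.57 CPM in KO, against 8.41 and 3.63 CPM in WT. Both KO libraries were below both WT libraries, though KO 1 and WT 2 lay close together (log2 fold change -1.32, 95% interval -3.25 to 0.60, adjusted p = 0.469 in edgeR).

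To compare levels between genes, CPM were divided by the length of the annotated exons in kilobases (CPM per kb). On this scale Slc12a4 was the most abundant member in both genotypes, at 30.7 ± 1.59 CPM per kb in KO and 35.2 ± 1.88 CPM per kb in WT (SD, n = 2 each). Slc12a1 held place 2 in KO with 20.1 ± 2.51 CPM per kb, and its libraries were separate from those of both neighbours in the order. In WT it held place 5 with 1.52 ± 0.20 CPM per kb, overlapping with Slc12a8. The other places in KO were taken by Slc12a7 (5.35 CPM per kb), Slc12a9 (3.85), Slc12a2 (0.90), Slc12a3 (0.80), Slc12a8 (0.54) and Slc12a5 (0.059). Slc12a7 overlapped with Slc12a9, Slc12a2 with Slc12a3, and Slc12a3 with Slc12a8. The order in WT was Slc12a4, then Slc12a3 (6.12 CPM per kb), Slc12a7 (3.71), Slc12a9 (2.64), Slc12a1, Slc12a8 (1.35), Slc12a2 (0.77) and Slc12a5 (0.25). In WT, Slc12a3 overlapped with Slc12a7, Slc12a7 with Slc12a9, and Slc12a8 with Slc12a2. The summed level of the 8 genes was 61.8 and 62.8 CPM per kb in KO and 51.4 and 51.9 CPM per kb in WT. Slc12a1 made up 35.4% and 29.2% of that sum in KO, against 2.68% and 3.19% in WT, and Slc12a3 made up 2.29% and 0.28% in KO, against 16.3% and 7.42% in WT. Without Slc12a1 the sum was 39.9 and 44.5 CPM per kb in KO and 50.0 and 50.2 CPM per kb in WT. With the longest annotated transcript as the length, Slc12a3 made up 29.4% and 14.3% in WT, and Slc12a1 held place 6 there behind Slc12a8. In KO, Slc12a3 (2.05 CPM per kb) then stood above Slc12a2 (1.502). That length also moved other levels by over 1.5 times, to 9.70 CPM per kb in KO and 6.73 in WT for Slc12a7, and to 5.80 in KO and 3.98 in WT for Slc12a9. Slc12a3 reached 15.8 CPM per kb in WT, and Slc12a2 reached 1.30.

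**Figure D3:**
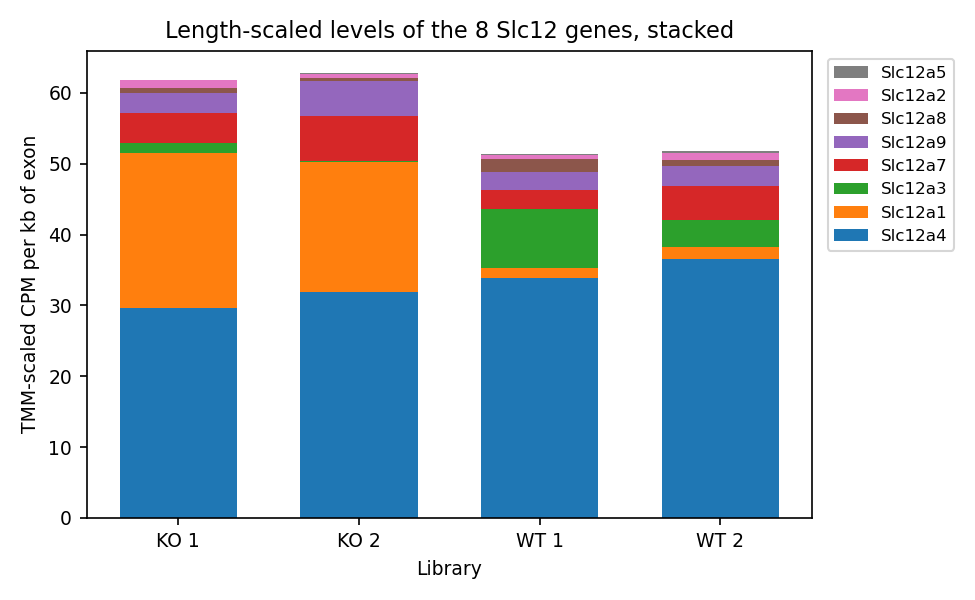
Stacked TMM-scaled CPM per kb of exon of the 8 Slc12 genes in each library. Slc12a4 forms the base of every bar, Slc12a1 adds 35.4% and 29.2% of the sum in KO, and Slc12a3 adds 16.3% and 7.42% in WT.

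The 5 protein-coding genes on each side of Slc12a1 were set beside it. Ctxn2, the gene directly before it on the same strand, encodes a small cortexin membrane protein and ends 4666 bases before Slc12a1 begins. It had 82 and 42 counts in KO, against 9 and 10 counts in WT, and both KO libraries were above both WT libraries (log2 fold change 2.36, SE 0.96, adjusted p = 0.273 in edgeR and 0.191 in DESeq2). Dut, a nucleotide-pool enzyme gene 17188 bases beyond Slc12a1, had 92.2 and 66.4 CPM in KO, against 141 and 63.7 CPM in WT. Fbn1, the fibrillin gene after it, had 69.9 and 84.6 CPM in KO, against 46.7 and 136 CPM in WT. Myef2, an RNA-binding repressor gene before Ctxn2, had 19.4 and 25.4 CPM in KO, against 31.1 and 28.9 CPM in WT. Dut and Fbn1 overlapped between the groups, and Myef2 was slightly lower in KO (log2 fold change -0.42, adjusted p = 0.640 in edgeR). Shc4, an adaptor protein gene 397445 bases away, had 1.08 and 1.46 CPM in KO, against 8.90 and 5.92 CPM in WT (log2 fold change -2.54, adjusted p = 0.183 in edgeR and 0.0234 in DESeq2). Sqor and Sema6d overlapped between the groups in CPM, Cep152 had a log2 fold change of -0.51, and Slc24a5 and Gm9913 were too low to be tested.

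**Figure D4:**
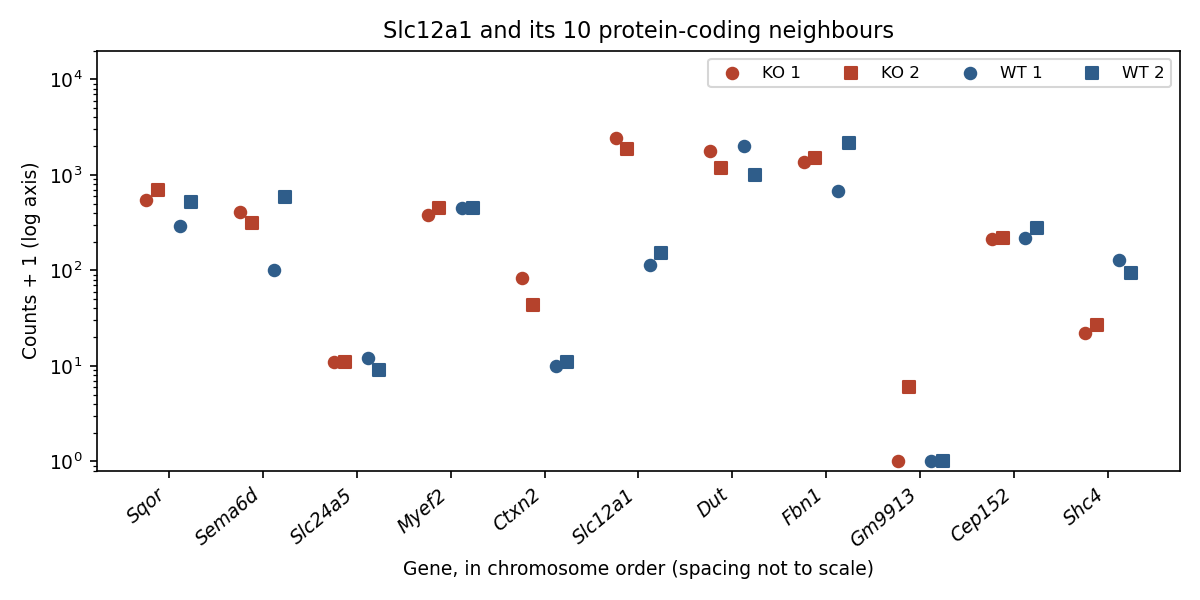
Counts + 1 (log axis) of Slc12a1 and the 5 protein-coding genes on each side, in chromosome order with spacing not to scale, with 1 point per library. In these counts, not scaled for depth, Slc12a1, Ctxn2 and Sqor have both KO libraries above both WT libraries, and Shc4 has both lower. Sqor overlaps in CPM.

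Most genes that accompany Slc12a1 in the kidney had few counts. Of 22 genes of the thick ascending limb and distal tubule, 9 had enough counts to be tested. Neither edgeR (background 0.0%) nor DESeq2 (background 2.72% higher and 5.69% lower) called any of them. At an unadjusted p under 0.05 in edgeR, 0 passed (background 7.32% higher and 9.89% lower). Their median log2 fold change was -0.42. Umod, the gene of uromodulin and the leading product of the thick ascending limb, had 0 and 0 counts in KO and 9 and 0 counts in WT. Bsnd, the chloride channel subunit barttin, had 0 and 0 counts in KO and 11 and 0 counts in WT. Kcnj1, the potassium channel that works beside NKCC2, had 3 and 12 counts in KO and 0 and 22 counts in WT. Pax8, a kidney lineage factor, had 0 and 0 counts in KO and 0 and 4 counts in WT. Of the 9 tested, 2 lay higher and 2 lower in both KO libraries (background 25.8% higher and 24.9% lower). The higher ones were Cldn10, a claudin of the thick ascending limb, with 55.8 and 67.9 CPM in KO against 51.5 and 32.1 CPM in WT, and Trpm6, a magnesium channel, with 21 and 22 counts in KO against 13 and 9 counts in WT. Calb1, a calcium-binding protein of the distal tubule and also of ameloblasts, was among the lower ones, at 449 and 18.2 CPM in KO, against 797 and 744 CPM in WT. The other was Cldn19, with 12 and 7 counts in KO against 10 and 65 counts in WT. Its counts overlapped, and in CPM KO 1 (0.62) lay only just below WT 1 (0.70).

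The kinase pathway that controls these carriers had genes on both sides, in shares near those of all genes. Of 13 tested genes of the WNK and SPAK/OSR1 pathway, 2 lay higher and 4 lower in both KO libraries than in both WT libraries (background 25.8% higher and 24.9% lower), and the median log2 fold change was 0.082. At an adjusted p under 0.05, edgeR called 0 and DESeq2 called 1 higher (background 2.72%), which was Stk39. Stk39 encodes SPAK, the kinase that phosphorylates NKCC and NCC, and had 13.2 and 16.6 CPM in KO, against 1.60 and 5.22 CPM in WT. Both KO libraries were above both WT libraries (log2 fold change 2.13, SE 0.69, adjusted p = 0.207 in edgeR and 0.0355 in DESeq2). Nedd4l, a ubiquitin ligase that lowers NCC, had 9.89 and 5.83 CPM in KO, against 20.2 and 19.6 CPM in WT (log2 fold change -1.34, adjusted p = 0.234 in edgeR and 0.120 in DESeq2). Cab39, the MO25 scaffold that activates SPAK, had 21.3 and 20.6 CPM in KO, against 28.0 and 49.0 CPM in WT. Neither passed the test.

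The sodium pump, which sets the sodium gradient that NKCC carriers use, had genes on both sides. Of 11 tested pump genes, 4 lay higher and 3 lower in both KO libraries (background 25.8% higher and 24.9% lower), with a median log2 fold change of -0.064. edgeR called 0, and DESeq2 called 2 higher and 1 lower (background 2.72% and 5.69%). Fxyd1, a pump regulator, had 64.3 and 58.0 CPM in KO, against 18.6 and 26.5 CPM in WT (adjusted p = 0.171 in edgeR and 0.0289 in DESeq2). Atp1b1, the beta subunit that brings the pump to the membrane, lay on the other side. It had 98.5 and 26.1 CPM in KO, against 535 and 286 CPM in WT (log2 fold change -2.72, adjusted p = 0.165 in edgeR and 0.000163 in DESeq2). As with Slc12a3, KO 2 had the lowest Atp1b1 level and WT 1 the highest. The B-lineage sum was also lowest in KO 2 and highest in WT 1, and its part in the Atp1b1 values was not tested.

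Chloride channels lay near the shares of all genes. Of 21 tested, 4 lay higher and 6 lower in both KO libraries (background 25.8% higher and 24.9% lower), and the median log2 fold change was -0.10. Neither edgeR (background 0.0%) nor DESeq2 (background 2.72% higher and 5.69% lower) called any. At an unadjusted p under 0.05 in edgeR, 1 was higher and 2 lower (background 7.32% and 9.89%). Cftr, the cystic fibrosis channel, had 1.49 and 0.56 CPM in KO, against 7.30 and 3.82 CPM in WT. Best1, a bestrophin channel, had 26.4 and 29.5 CPM in KO, against 7.02 and 15.4 CPM in WT. Of 16 tested bicarbonate and anion exchangers, 2 lay higher and 7 lower (background 25.8% higher and 24.9% lower), with a median of -0.19. DESeq2 called 1 higher and 2 lower (background 2.72% and 5.69%) where edgeR called 0. The higher one was Slc4a4, the sodium-bicarbonate carrier of ameloblasts and kidney, with 14.8 and 11.6 CPM in KO, against 4.31 and 2.42 CPM in WT (adjusted p = 0.187 in edgeR and 0.0401 in DESeq2). The lower ones were Slc26a7, an anion exchanger, with 3.95 and 4.54 CPM in KO against 12.6 and 23.5 CPM in WT, and Slc4a1, the band 3 exchanger of red cells. Slc4a10, a sodium-driven bicarbonate exchanger, was below the detection limit in KO, with 1 and 0 counts there and 19 and 11 counts in WT. Erythroid markers, of which Slc4a1 is one, summed to 109 and 122 CPM in KO, against 525 and 465 CPM in WT. Of 9 tested sodium-proton exchangers and their adaptors, 1 lay higher and 4 lower (background 25.8% higher and 24.9% lower), with a median of -0.52. DESeq2 called 2 lower (background 5.69%), Slc9a7 and Slc9a3r1, and edgeR called 0.

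**Figure D5:**
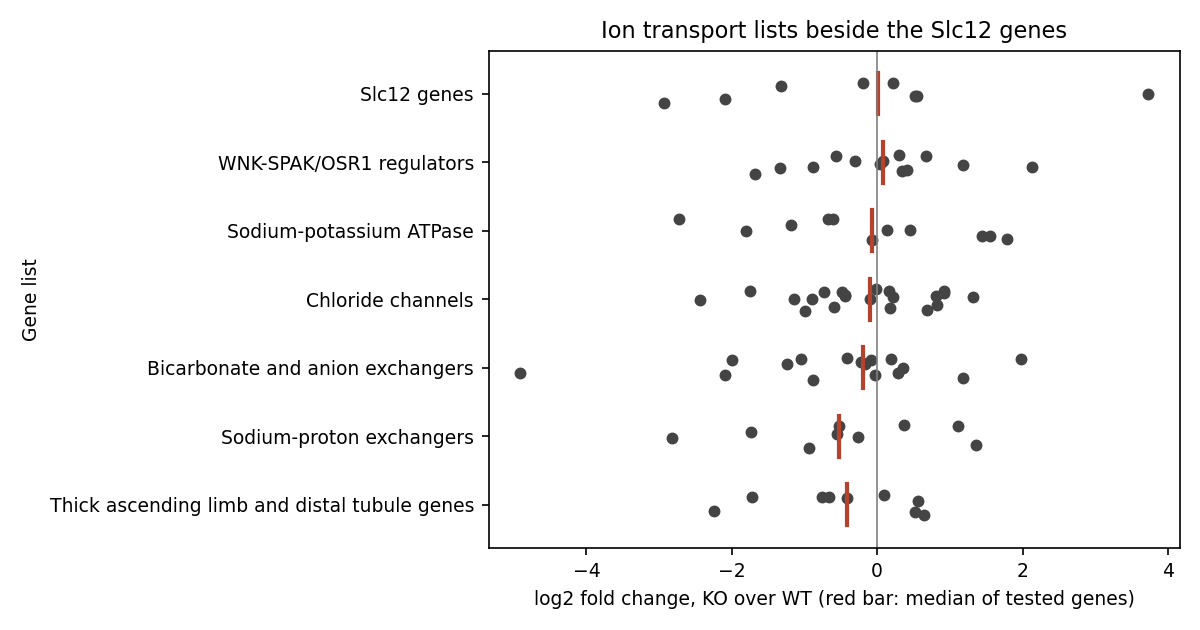
Log2 fold change of KO over WT for the tested genes of each ion transport list (points, spread vertically for visibility) and the list median (red bar). Slc12a1, at 3.73, lies beyond every other plotted gene on the higher side, and list medians lie between -0.52 and 0.082.

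By likeness of profile, the genes closest to Slc12a1 over the 4 libraries in centred log2 CPM were Tmem170, Spag16, Gm43282, Tmem200c and Gm48887 (root mean square difference of 0.14 to 0.23). They were far less abundant than Slc12a1. These log2 values include a prior count of 2, which shrinks the differences of genes with few counts. In the edgeR fit, the log2 fold change was 3.77 for Tmem170, near the 3.73 of Slc12a1. It was larger for Tmem200c (4.63), Gm48887 (7.14), Gm43282 (7.42) and Spag16 (7.60). Tmem170 had 156 and 136 counts in KO, against 8 and 9 counts in WT, and Spag16, Gm43282 and Gm48887 had no counts in WT. The genes closest in both level and profile, on the CPM per kb scale, were Ccsap, Nrtn, Rnf144b, Nog and Carnmt1 (0.44 to 0.60). Ccsap, a spindle-associated protein gene, had 35.3 and 55.0 CPM in KO, against 3.27 and 3.63 CPM in WT. Nrtn, the gene of neurturin, had 17.4 and 9.64 CPM in KO, against 1.88 and 1.78 CPM in WT. With 4 libraries in 2 groups, such likeness holds little beyond the genotype difference itself.

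Marker lists of the cell types are set beside Slc12a1 as counts, with 25.8% higher and 24.9% lower over all genes. Of 11 tested dental mesenchyme markers, 6 lay higher and 1 lower in both KO libraries. Msx2, a homeobox gene of the tooth mesenchyme, had 484 and 359 CPM in KO, against 87.4 and 81.4 CPM in WT (log2 fold change 2.32, adjusted p = 0.145 in edgeR and 5.4e-06 in DESeq2). Of 13 tested leukocyte markers, 0 lay higher and 9 lower, and of 14 tested ameloblast and epithelial markers, 0 lay higher and 8 lower. Of 9 odontoblast markers, 3 lay higher and 4 lower. Sp7, the gene named in the Cre driver, was among the higher ones, with 131 and 146 CPM in KO, against 43.9 and 60.7 CPM in WT. Only KO carried the Sp7-cre transgene, and its part in the Sp7 counts was not tested. Among the lower ones, Dspp had 23.5 and 0.73 CPM in KO, against 26.2 and 244 CPM in WT. Phex had 2.31 and 4.93 CPM in KO, against 5.56 and 22.4 CPM in WT. Bglap had 88.9 and 153 CPM in KO, against 165 and 414 CPM in WT. The part of these cell types in the Slc12a1 values was not tested.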

How the data were processed

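The table that the authors deposited holds raw counts of reads per gene, by Ensembl ID, in whole numbers. The submitters' processing notes name the GRCm38 build, featureCounts 2.0.1, Bowtie2 2.3.5.1 and Trim Galore 0.6.6. Which annotation was used, whether strand was considered and how reads with several matches were counted is not given in the sources used here. Per the labels' protocols, cDNA was made with oligo-dT priming and template switching, amplified by PCR and cut with a transposase kit, so PCR copies cannot be told from molecules. Of 55487 IDs, 55227 were found in GENCODE M21 (GRCm38), which gave symbols, positions and exon lengths.

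All genes were tested together with edgeR 4.0.16 (R 4.3.3; quasi-likelihood F-test, TMM, filterByExpr, genotype as the term, two-sided, threshold 0.05). This kept 17128 genes, all 8 members among them. The SE is the absolute log2 fold change divided by the square root of F, and 95% intervals use the fit's degrees of freedom. Alternatives were limma-voom from limma 3.58.1, DESeq2 1.42.0, other scalings, other filters, a replicate block and leaving out each library, where the lone library left in its group takes its spread from the pair in the other. The fit was run on simulated counts. The required result was set at far less spread between libraries than in these data. The check therefore does not show how the fit performs at the spread seen here. A floor of 3 counts corresponds to 0.154 to 0.209 CPM, which covers counting error only.

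The members, gene lists and tests were chosen with earlier results of these data known. Named were all members, the 5 protein-coding genes on each side of Slc12a1, up to 3 genes per list and direction with the smallest p, and the 5 genes most like Slc12a1 on either scale. B-lineage genes, genes like Slc12a3 and its neighbours were added after the values were seen. Some genes of these lists enter the counts but are not reported here by name.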

Additional observations from a re-analysis of the deposited data

How the results depend on the processing

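Genes called over the whole table numbered 0 higher and 0 lower in KO in the main edgeR test. There were 449 and 1005 without the low-count filter, 55 and 138 with the stricter filter, 59 and 185 with the replicate block and 472 and 989 in DESeq2. Leaving out single libraries gave counts from 0 to 215 higher and from 0 to 703 lower (215 and 703 without KO 1, 15 and 1 without KO 2, 95 and 214 without WT 1, 0 and 0 without WT 2). Among the 7 members other than Slc12a1, 0 passed in the main test, whereas DESeq2 and the fit without a filter passed 1, Slc12a3, and leaving out single libraries passed from 0 to 1, Slc12a3 without KO 1. Slc12a2 changed sign without WT 1 (-0.17) and without KO 1 (-0.20), in a range of -0.20 to 0.75 with 1 library left out. No other member changed sign under the settings run, and Slc12a1 ranged from 3.65 to 3.76 over those of scaling, filter, block and tool. Slc12a5 did not enter the stricter filter. The cause of these changes was not tested. The labels name no pairing, and replicates 1 and 2 differed only weakly alike in KO and WT (r = 0.15 across 17128 genes); with the replicate block 0 of the 7 members passed. With 2 libraries per group, the interval of Slc12a5 spans 0.033-fold to 1.63-fold.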
